A study of Homo sapiens with 41 samples.

Results

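The comparison described here is of A375 tumours grown in mice and treated with vemurafenib or with vehicle, read as the RNA bound to ribosomes. All 8 libraries of these 2 groups were taken, by their sample titles, out of 41 samples in 15 groups of the series, and all genes of their table were used. A375 is an established human melanoma cell line with a mutant BRAF kinase, and vemurafenib is an inhibitor of that kinase. Both groups were subcutaneous tumours of A375 cells injected with Matrigel. The treated group (n = 4) received 10 doses of vemurafenib at 75 mg/kg, and the control group (n = 4) received vehicle, for which the labels give no dose. In both groups tumour lysate was immunoprecipitated with beads against GFP and RNA was taken from the ribosomes pulled down. The table's name gives the tagged ribosomal protein as RPL10a. The labels give neither the strain and age of the mice nor the promoter of the tag nor which cells of the tumour carried it. Whether the 4 tumours of a group grew in 4 different mice is not stated either. A p-value here therefore speaks only of how far these libraries scatter, and part of that scatter may be technical.

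BRAF is a kinase of the RAS, RAF, MEK and ERK cascade (the MAPK pathway), which carries growth signals from receptors at the membrane to transcription factors in the nucleus. ERK switches on its own inhibitors, the Sprouty proteins and the DUSP phosphatases, so their transcripts are widely used to read the activity of the pathway. In melanoma the cascade also drives the cell cycle and glucose use, and is known to act on MITF, the master factor of pigment cells, and on a set of secreted proteins. Purifying tagged ribosomes takes RNA that is being translated, so a gene's value moves with both the amount of its mRNA and the share of that mRNA on ribosomes, and these cannot be told apart in this table. Nor can fewer cells of a type be told apart from less RNA per cell. The comparison bears on the series' question of what blocking the driver oncogene does to cells that are sensitive to the drug.

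The libraries held 8063754 to 25467614 reads under vehicle and 15650623 to 23829641 under vemurafenib, and 16601 to 17844 genes were detected in each. On log2 values, pairs of libraries of the same group had Pearson correlations of 0.9875 to 0.993, and pairs across the groups 0.8737 to 0.897 (across genes, which are not independent replicates). Counting noise alone did not account for the differences within a group (chi-square divided by its degrees of freedom lay between 3.97 and 17.9). Vehicle replicate 4 and vemurafenib replicate 1 held the most precursor rRNA of their groups (RN45S, 0.607% and 1.16% of the normalized total, against 0.148% and 0.344% in the lowest library of each). Leaving both out moved no count of all genes or of members of a response list by over 1.5 times. After the authors' size factors the totals of all genes still differed between the groups, at 12930034 to 13758401 under vehicle and 15329228 to 16734949 under vemurafenib. When each library was scaled to the same total instead, the median gene moved from a log2 change of 0.0026 to -0.264. With this scaling 3012 genes passed as higher and 7060 as lower, against 4815 and 4788 with the deposited size factors, so directions below are relative to those size factors.

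Markers of melanoma lines were present in every library, with the pigment proteins near 0. Of 14 such markers 10 had values high enough to be tested, and their summed level over the list ran from 6618 to 8142 normalized counts under vehicle and 18820 to 24890 under vemurafenib. SOX10, the lineage factor of neural crest cells, and S100B were abundant under vemurafenib, whereas MLANA, PMEL and TYR, which act in pigment granules, stayed at or near 0 in both groups. MLANA was at 0, 6.26, 5.60 and 0 under vehicle and 1.01, 2.03, 1.57 and 5.15 under vemurafenib, and was too low to be tested. Markers of other cell types were near 0 in part and countable in part. Among leukocyte genes, PTPRC, which encodes the pan-leukocyte protein CD45, had 2 reads in all vehicle libraries together and 4 in all vemurafenib libraries. Of 19 leukocyte markers present, 7 were tested, 1 higher and 6 lower (0 and 6 with equal totals), and the summed level was 1053 to 1311 under vehicle and 896.1 to 1278 under vemurafenib. Those that fell most (log2 change ± SE, here and below) were CSF1R (-3.85 ± 0.23) and FCER1G (-4.32 ± 0.43), both genes of myeloid cells. Of 15 endothelial markers 5 were tested (2 higher, 2 lower), with summed levels of 952.2 to 1194 and 791.2 to 1084, and CDH5 had 1 and 2 reads in the groups. Of 15 fibroblast and pericyte markers 12 were tested (4 higher, 5 lower), with summed levels of 2381 to 2855 and 2797 to 3854, and several of these genes are also expressed by cultured melanoma cells. Of 17 blood, skin and muscle markers 5 were tested (4 higher, 0 lower), with HBB at 0 and 2 reads. The largest change there was in KRT14, a keratin of basal skin cells, at 1.60, 3.13, 1.02 and 0 under vehicle and 168, 71.1, 62.01 and 89.4 under vemurafenib. Every vemurafenib library was above every vehicle library for KRT14. PTPRC, CDH5 and HBB are examples near 0, and most of the level of their lists lay in other members. The endothelial and the blood, skin and muscle counts are small and moved with the settings: with equal totals 1 endothelial marker was higher and 2 lower, and 1 blood, skin or muscle marker was higher. The sources used here do not say how reads of mouse cells were treated, and the part that other cells play in the results below was not tested.

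Under vemurafenib most of the measured transcripts moved. Of 14069 genes with a mean of at least 10 normalized counts, 9603 passed an adjusted p of 0.05 in limma's test (68.3% of genes tested), 4815 higher (34.2%) and 4788 lower (34%). Changes of at least 2-fold were fewer, 2964 genes (21.1%), of which 1475 were higher and 1489 lower. Changes of at least 8-fold were 128 up and 197 down. In 8600 genes (61.1%) the 4 libraries of one group all lay on one side of the 4 libraries of the other. Counts within gene lists are to be read beside these percentages.

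**Figure D1:**
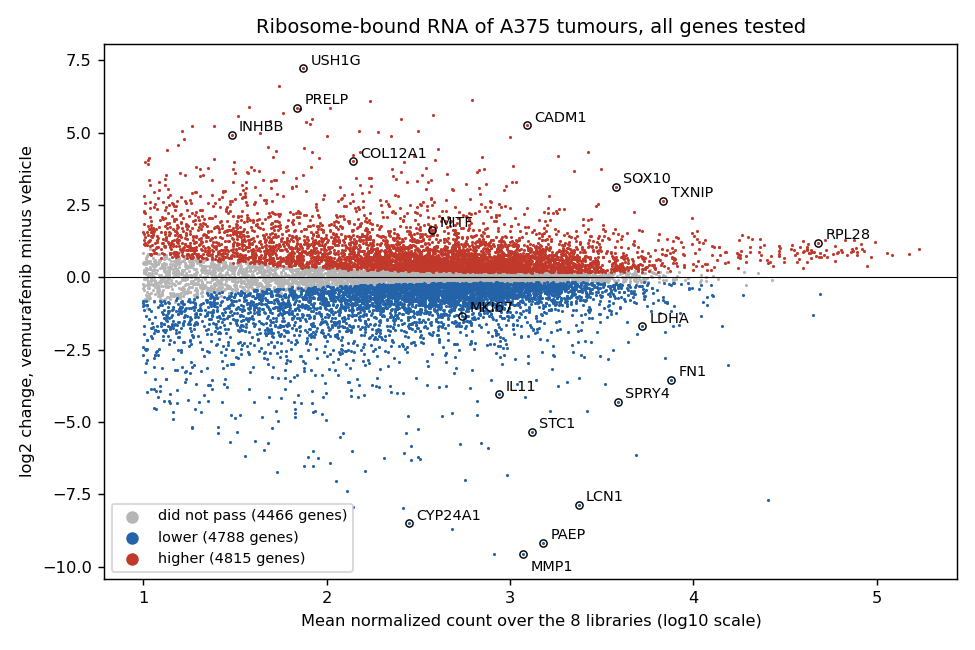
Each point is one of the 14069 genes tested, with its mean normalized count over the 8 libraries on the horizontal axis (log10 scale) and its log2 change, vemurafenib minus vehicle, on the vertical axis. Red genes were higher (4815), blue genes lower (4788) and grey genes did not pass, and the falls reach further (MMP1 at -9.58) than the rises among abundant genes (CADM1 at 5.25, RPL28 at 1.19).

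Among genes with a mean of at least 50, the deepest falls were in genes that were well expressed under vehicle and almost absent under vemurafenib. MMP1, a secreted collagenase, was at 2056, 1906, 2374 and 3105 under vehicle and 3.03, 0, 3.92 and 3.22 under vemurafenib (log2 change -9.58 ± 0.36 SE, adjusted p = 9.2e-13). NOS1, which encodes the neuronal nitric oxide synthase, was at 1406, 1619, 1909 and 1636 under vehicle and 2.02, 0, 3.14 and 0.643 under vemurafenib (log2 change -9.58 ± 0.31 SE, adjusted p = 1.8e-13). In both, no vemurafenib library came near the lowest vehicle library. PAEP, a secreted lipocalin, was at 2303, 2709, 3113 and 4030.3 under vehicle and 3.03, 5.08, 7.06 and 2.57 under vemurafenib (-9.17 ± 0.22). LCN1, another secreted lipocalin, was at 3183, 4317, 4636 and 6738 under vehicle and 15.1, 33.5, 13.3 and 16.7 under vemurafenib (-7.87 ± 0.23), so this transcript ranked among abundant ones under vehicle and stayed countable under the drug. EDN3, the endothelin that acts on the receptor EDNRB of pigment cells, was at 749, 816, 1218 and 1065 under vehicle and 3.03, 0, 0.785 and 2.57 under vemurafenib (-8.71 ± 0.34). The metabolic genes CYP24A1, which inactivates vitamin D, and PCK1, the first committed enzyme of gluconeogenesis, belonged to the same class. CYP24A1 had 2176 reads in the vehicle libraries and 3 in the vemurafenib libraries, a ratio of 890.3 after scaling to size factors (95% interval 304 to 4320.4, counting error only). PCK1 was at 475, 438, 611 and 562 under vehicle and 1.01, 2.03, 0.785 and 0.643 under vemurafenib (-7.98 ± 0.23). The other genes of the 15 deepest falls were the collagenase MMP13 (1009 against 3 reads, ratio 413, interval 141 to 2005), the odorant-binding lipocalin OBP2A (1132 against 1 read, ratio 1389, interval 249 to 54928; it has a close copy in the genome), the secreted CRISP3 (584 against 3 reads, ratio 239, interval 81.4 to 1162), the neuropeptide GAL (-7.03 ± 0.29), the secreted CHI3L1 (-6.68 ± 0.21), the keratin KRT79 (-6.997 ± 0.20), and the receptors CHRNA9 (-6.85 ± 0.13) and ADCYAP1R1 (-6.52 ± 0.33). Changes of this size rest on few reads under vemurafenib and on the pseudocount of 1.

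The 15 largest rises were taken among genes with a mean of at least 50, which left out KRT14, given above (log2 change 5.4). Among them was USH1G, a scaffold protein known from inner ear hair cells. USH1G had no read in any vehicle library and 142, 149, 123 and 183 normalized counts under vemurafenib. That is at least 198-fold higher when 3 reads over the whole vehicle group are taken as its floor. ANGPTL7, a secreted angiopoietin-like protein, had 1 read under vehicle and 508 under vemurafenib, a ratio of 414 (95% interval 73.9 to 16379, counting error only). CADM1, an adhesion molecule of the immunoglobulin family, was abundant after treatment, at 78.6, 64.2, 50.4 and 61.1 under vehicle and 2582, 2476, 2442 and 2208 under vemurafenib (log2 change 5.25 ± 0.11 SE, adjusted p = 2.6e-15). SLC35F1, a member of the nucleotide sugar transporter family, was at 33.7, 14.1, 13.2 and 11.6 under vehicle and 1245, 1276, 1285 and 1089 under vemurafenib (6.12 ± 0.23). PRELP, a matrix proteoglycan, was at 1.60, 3.13, 0 and 1.46 under vehicle and 185, 148, 144 and 72.7 under vemurafenib (5.85 ± 0.39). In each of them the groups were far apart, and the spread within the vehicle group was of a few counts for the rarest. The remaining 10 were WSCD1 (6.10 ± 0.27), PKNOX2 (5.83 ± 0.29), SCRG1 (5.81 ± 0.31), the protocadherin PCDH20 (5.66 ± 0.49), the kainate receptor GRIK2 (5.61 ± 0.27), PRR16 (5.47 ± 0.23), C13orf15 (5.47 ± 0.36), the adhesion protein FLRT1 (5.37 ± 0.45), the acyl-CoA synthetase ACSBG1 (5.30 ± 0.36) and PPP1R1B (5.06 ± 0.22), a phosphatase inhibitor of dopamine signalling.

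Transcripts that report MAPK output fell. Of 26 genes listed, 23 were lower, 1 was higher (EGR3) and 2 did not pass, and the median log2 change was -1.27 against 0.0026 over all genes tested. SPRY4, a Sprouty inhibitor of receptor signalling, was at 8369, 6389, 7064 and 7714 under vehicle and 254, 484, 494 and 306 under vemurafenib (log2 change -4.31 ± 0.17 SE, adjusted p = 1.2e-12). DUSP6, the cytoplasmic phosphatase of ERK, was at 4640.5, 3836, 4052 and 4309.8 under vehicle and 801, 938, 976 and 941 under vemurafenib (log2 change -2.20 ± 0.08 SE, adjusted p = 7.8e-13). Vemurafenib libraries lay below vehicle libraries without overlap for both, and both kept countable reads. IER3, an immediate early gene, was at 6210.3, 6039.5, 5587 and 6582 under vehicle and 528, 465, 578 and 346 under vemurafenib (-3.69 ± 0.12). DUSP5, the nuclear phosphatase of ERK, fell (-2.31 ± 0.09). CCND1, which encodes the cyclin D1 that starts the cell cycle, was at 3452, 3201, 3169 and 3116 under vehicle and 1822, 2104, 1839 and 1766 under vemurafenib (log2 change -0.78 ± 0.07 SE, adjusted p = 7.3e-08). Of the genes named here, CCND1 had the smallest fall. EGR1, an immediate early zinc finger factor that ERK induces, did not pass: it was at 1365, 847, 838 and 979.6 under vehicle and 1262, 556, 1145 and 1139.9 under vemurafenib (log2 change -0.01 ± 0.20 SE, adjusted p = 0.96). The groups overlapped for EGR1, with the lowest library under vemurafenib. EGR3, of the same family, was higher (60.9, 70.5, 64.1 and 39.3 under vehicle and 113, 104, 101 and 149.9 under vemurafenib, 0.996 ± 0.18), with no overlap.

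AP-1 is a dimer of FOS and JUN family proteins, and its subunits went in opposite directions. Of 14 genes of AP-1 and immediate early factors, 7 were higher, 5 lower and 2 did not pass, with a median of 1.12. FOSL1, the FOS family member most tied to sustained ERK activity, was at 794, 841, 608 and 667 under vehicle and 176, 208, 194 and 176 under vemurafenib (log2 change -1.93 ± 0.11 SE, adjusted p = 1.3e-10). BATF3 fell too (-2.08 ± 0.25), as did JUNB (-0.69 ± 0.11). JUN rose and was at 893, 593, 556 and 566 under vehicle and 3568, 2668, 3436 and 3547 under vemurafenib (log2 change 2.36 ± 0.13 SE, adjusted p = 1.2e-10). Every vemurafenib library of JUN lay above the highest vehicle library. NR4A1, an orphan nuclear receptor of the immediate early class, was at 159, 108, 59.04 and 85.9 under vehicle and 1417, 1090.4, 1007 and 1819.9 under vemurafenib (3.73 ± 0.23). FOS was at 802, 276, 89.1 and 374 under vehicle and 1755, 865, 1930.0 and 1932 under vemurafenib (2.39 ± 0.44). FOS varied among vehicle libraries more than the other genes given here, and its lowest vemurafenib library lay just above the highest vehicle library. MAF (2.21 ± 0.11) and the Krüppel-like factor KLF4 (1.94 ± 0.11) rose with little spread in either group.

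**Figure D2:**
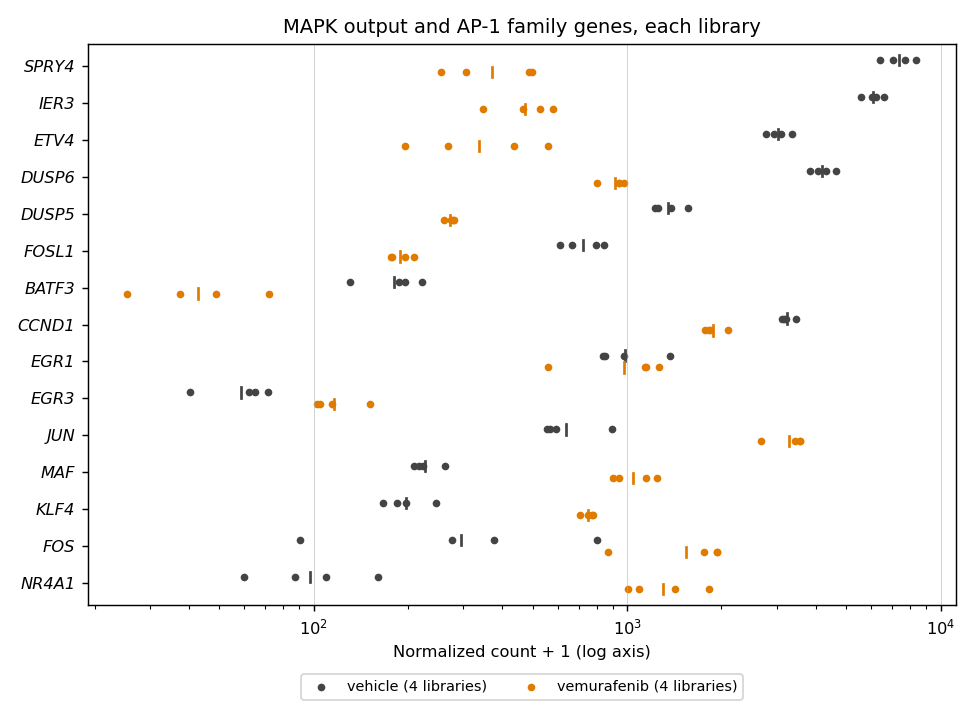
Normalized counts (plus 1, log axis) of 15 genes of MAPK output and of the AP-1 family, with a point for each library, vehicle in grey and vemurafenib in orange, and a bar at the geometric mean of each group. SPRY4, IER3, ETV4 and DUSP6 sit far to the left under vemurafenib, JUN, FOS and NR4A1 to the right, and the groups overlap in EGR1.

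Genes of the cell cycle were nearly all lower. Of 32 DNA replication genes 31 were lower and 1 (CDT1) higher, with a median of -1.37. All 30 mitosis genes were lower, with a median of -1.48 and a range of -2.2 to -0.688, against 34% of all genes tested. MKI67, the proliferation antigen Ki-67, was at 803, 867, 791 and 659 under vehicle and 326, 253, 419.9 and 258 under vemurafenib (log2 change -1.33 ± 0.14 SE, adjusted p = 2.1e-07). UHRF1, which maintains DNA methylation behind the fork, was at 475, 415, 446 and 410.5 under vehicle and 81.8, 77.2, 98.1 and 76.6 under vemurafenib (log2 change -2.38 ± 0.11 SE, adjusted p = 1.2e-11). For both, every vemurafenib library lay below every vehicle library, and both transcripts stayed measurable. ORC6 (-2.52 ± 0.11), a subunit of the origin recognition complex, and GINS1 (-2.005 ± 0.10), of the replicative helicase, fell as well. The mitotic kinase AURKB (-1.74 ± 0.10), the ubiquitin-conjugating enzyme UBE2C (-1.62 ± 0.11) of the anaphase-promoting complex, and the kinetochore protein NUF2 (-1.85 ± 0.13) fell by less than 2 log2 units. CDT1, which loads the helicase at origins, was higher in the test, but the groups overlapped and it did not pass when libraries were scaled to equal totals (404, 507, 410.2 and 432 under vehicle and 493, 560.4, 584 and 547 under vemurafenib, log2 change 0.32 ± 0.09 SE, adjusted p = 0.0057).

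These lists were set beside the letters of their promoters, in windows of 300 bases (250 before the start and 50 after) that RefSeq gives on GRCh38.p14, a newer build than the hg19 in the submitters' notes. Sites were searched on both strands: the cell cycle homology region TTTGAA and the CCAAT box CCAAT, which are known to sit together in promoters of mitotic genes and bind the DREAM, MuvB and NF-Y proteins, and 4 forms of the E2F site (TTTGGCGC, TTTCCCGC, TTTGCCGC and TTTCGCGC), known from replication genes. Of 30 mitosis genes 24 had a window, and 17 of these (70.8%) held the homology region, against 15.4% of all 27305 windows. Here and below, all windows include those of genes not tested in the tumours, so the 2 shares are not like for like. A CCAAT box was in 75% of the mitosis windows and 35.7% of all, and both together in 13 of 24 (54.2%) and 6.08%. The CCAAT box alone was not particular to mitosis genes, since 63% of the replication windows and 72.7% of those of the ATF4 and unfolded protein response list held it. Of 32 replication genes 27 had a window, and 17 (63%) held an E2F site, against 12.5% of mitosis windows and 3.33% of all. Windows were found for 18 of 26 MAPK output genes and 18 of 29 lysosome genes, under 80%, so the same check is void for these lists. A match describes letters and is not a site. The bases upstream of the start are shown for 4 mitotic genes that fell, 5′ to 3′ on the gene's strand, with homology regions and CCAAT boxes (on either strand) in capitals. In MKI67 a homology region and a CCAAT box on the other strand share a base.
CCNB2, chr15:59105016-59105145, plus strand: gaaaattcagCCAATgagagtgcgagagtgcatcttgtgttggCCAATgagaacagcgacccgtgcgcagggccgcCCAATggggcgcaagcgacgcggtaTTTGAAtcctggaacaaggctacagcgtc
PLK1, chr16:23678799-23678878, plus strand: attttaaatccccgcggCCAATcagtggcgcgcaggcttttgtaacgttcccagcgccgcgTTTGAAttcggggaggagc
CDC20, chr1:43358871-43358940, plus strand: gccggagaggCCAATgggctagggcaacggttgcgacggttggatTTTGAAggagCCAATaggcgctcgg
MKI67, chr10:128126434-128126533, minus strand: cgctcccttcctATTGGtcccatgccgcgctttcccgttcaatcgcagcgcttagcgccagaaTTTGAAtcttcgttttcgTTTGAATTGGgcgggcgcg
CCNB2, which encodes cyclin B2, shows 3 boxes followed by a homology region (-1.25 ± 0.12 for its transcript). PLK1, the polo-like mitotic kinase (-1.68 ± 0.12), has 1 of each, and CDC20, the activator of the anaphase-promoting complex (-1.52 ± 0.13), has the region between 2 boxes. For replication, stretches of 50 bases are shown with E2F sites in capitals.
UHRF1, chr19:4909451-4909500, plus strand: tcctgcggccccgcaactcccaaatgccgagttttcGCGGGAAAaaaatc
E2F1, chr20:33686396-33686445, minus strand: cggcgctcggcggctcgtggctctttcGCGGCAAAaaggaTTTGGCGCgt
PCNA, chr20:5126653-5126702, minus strand: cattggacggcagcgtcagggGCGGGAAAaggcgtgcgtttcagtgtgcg
RFC3, chr13:33818069-33818118, plus strand: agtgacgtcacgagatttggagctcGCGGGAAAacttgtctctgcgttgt
E2F1 (-1.76 ± 0.11) encodes an E2F factor itself and holds 2 sites, PCNA (-1.34 ± 0.10) the sliding clamp of the polymerases and RFC3 (-1.62 ± 0.10) a subunit of the clamp loader.

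The machinery of translation parted. All 32 genes of the list of cytosolic ribosomal proteins and elongation factors were higher, with a median log2 change of 0.84 and a range of 0.33 to 1.19. Genes of ribosome biogenesis, which make and assemble rRNA in the nucleolus, were mostly lower: 20 of 25 fell, 2 rose (NPM1 and FBL) and 3 did not pass, with a median of -0.71. RPL28, a protein of the large subunit, was at 27907, 28049, 27400.2 and 32938 under vehicle and 71661, 66370.1, 63859 and 63366 under vemurafenib (log2 change 1.19 ± 0.09 SE, adjusted p = 7.3e-09). RPL18, of the same subunit, was at 22120.0, 25713, 24363 and 27858 under vehicle and 55063, 50736, 50472 and 49007 under vemurafenib (log2 change 1.04 ± 0.09 SE, adjusted p = 3.4e-08). The vemurafenib libraries were above the vehicle libraries without overlap in both. RPL10A rose alike (14452, 14826, 14561 and 16299 under vehicle and 31682, 30312, 31545 and 31666 under vemurafenib, 1.06 ± 0.08), and its reads cannot be told apart from those of the tagged RPL10a if the tag's coding sequence was counted. Taken over 86 rows with symbols of ribosomal proteins, their share of the normalized total was 16.1% to 18.2% under vehicle and 25.4% to 26.8% under vemurafenib, a share that no choice of size factor can move. NOP56, a core protein of the nucleolar particles that methylate rRNA, was at 2169.5, 1946, 2164 and 2214 under vehicle and 914, 846, 856 and 821 under vemurafenib (log2 change -1.30 ± 0.07 SE, adjusted p = 9.6e-11), and the nucleolar protein LYAR (-1.40 ± 0.09) and the pseudouridine synthase DKC1 (-1.01 ± 0.07) fell too. Ribosomal proteins, EEF1A1, NPM1 and GAPDH have near-identical processed copies in the genome that can share reads, so each is uncertain on its own. The list of ribosomal proteins depended on the scaling: with equal totals 31 of 32 were still higher (median 0.57), whereas quantile normalization, which forces the same distribution on every library, left 7 higher and 4 lower, with a median of 0.0413. Biogenesis kept a median of -0.71 under quantile normalization.

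**Figure D3:**
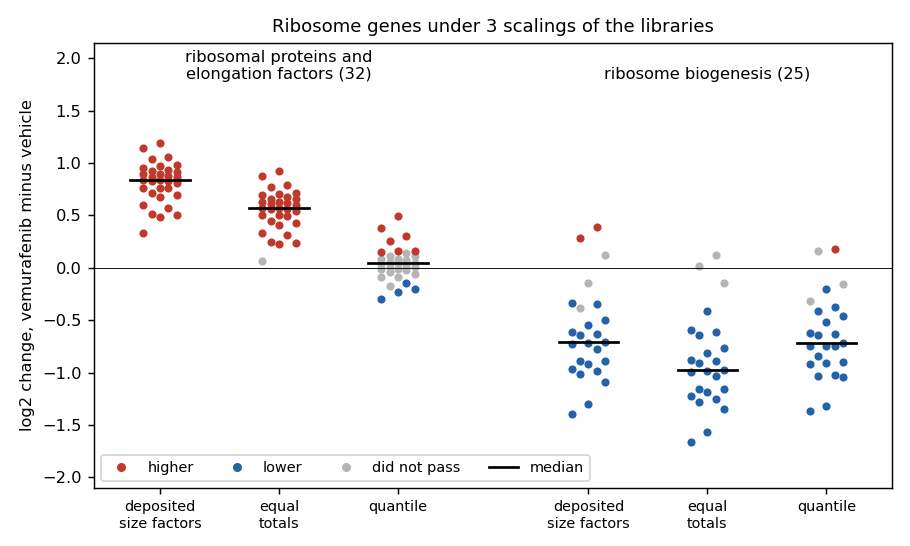
The log2 change, vemurafenib minus vehicle, of the 32 ribosomal protein and elongation factor genes and of the 25 ribosome biogenesis genes under 3 scalings of the libraries, with a point for each gene and a bar at the median. The first list sits at 0.84, 0.57 and 0.0413 in turn, the second below 0 in each.

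Messages of ribosomal proteins and elongation factors are known for a 5′ terminal oligopyrimidine tract, a C at the first base followed by a run of C and T, through which their translation answers to the kinase mTOR. The RefSeq start was read for such a tract, taken as a C at the start base and at least 4 further C or T, a search chosen after the values had been seen. Of the 32 genes 26 had a window. Of these 16 (61.5%) held the tract at the start base, or 21 (80.8%) within 5 bases of it. The shares of all windows were 4.04% and 21.1%. Members without the tract were higher too, as were all 32 genes. Among them the windows of RPL6, RPL10, RPL13, EEF1B2 and EEF1G held none within 5 bases. Each gene was read only at the RefSeq start listed first, which may not be the start used in these cells. A tract missing there does not show that the message lacks one. Of 25 biogenesis genes 20 had a window and 3 held the tract at the start base: NPM1, FBL and DDX21. The first pair are the members of that list that rose with the deposited size factors. NPM1, the nucleolar chaperone nucleophosmin, was at 21015, 23494, 23125 and 25939 under vehicle and 31619.6, 31058, 31196 and 28453 under vemurafenib (log2 change 0.39 ± 0.09 SE, adjusted p = 0.00075), without overlap. FBL, the rRNA methyltransferase fibrillarin, was at 4949.9, 5258, 5574 and 6506 under vehicle and 7019, 6687, 6824 and 6491 under vemurafenib (log2 change 0.28 ± 0.08 SE, adjusted p = 0.0059), and its groups overlapped. DDX21, a nucleolar helicase, was lower (-0.99 ± 0.08). Neither NPM1 nor FBL passed with equal totals, and under quantile normalization NPM1 turned to a fall, at -0.20, while FBL stayed higher. The 30 bases around the start, 10 before and 20 from the start base on, are shown for members that hold the tract and for NOP56, which does not, with the tract in capitals.
RPL28, chr19:55385922-55385951, plus strand: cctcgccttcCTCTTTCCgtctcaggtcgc
RPL18, chr19:48619159-48619188, minus strand: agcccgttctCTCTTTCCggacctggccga
RPS6, chr9:19380217-19380246, minus strand: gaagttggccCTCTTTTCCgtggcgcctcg
EEF1A1, chr6:73521013-73521042, minus strand: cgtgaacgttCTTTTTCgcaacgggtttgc
EEF2, chr19:3985444-3985473, minus strand: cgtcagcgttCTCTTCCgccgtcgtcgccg
NPM1, chr5:171387839-171387868, plus strand: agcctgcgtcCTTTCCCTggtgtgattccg
FBL, chr19:39846360-39846389, minus strand: cgcctgcgctCTTTTCCacgtgcgaaagcc
DDX21, chr10:68956160-68956189, plus strand: ggggaactacCTCTTCCTCTCCacgcggtt
NOP56, chr20:2652622-2652651, plus strand: cgctagccgcattgcgagccgaacccggga
EEF1A1 (0.98 ± 0.11) and EEF2 (0.90 ± 0.10) encode elongation factors and RPS6 (0.81 ± 0.11) a protein of the small subunit. Windows were found for 9784 of the 14069 genes tested, under 80%, so the check over all genes tested is void and no call of genes with and without the tract is given.

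Genes of cytokines and chemokines fell or did not pass. Of 24 listed 13 could be tested, and 11 fell, none rose and 2 did not pass (median -1.29), where 34% of all genes fell. Without the filter on low values 3 of the 24 rose, and 2 did in DESeq2. Their summed level over the list went from 3752 to 5000 normalized counts under vehicle to 854.3 to 1005 under vemurafenib. IL11, a cytokine of the IL-6 family, was at 1381, 1973, 1804 and 1409 under vehicle and 90.8, 98.5, 102 and 99.1 under vemurafenib (log2 change -4.04 ± 0.11 SE, adjusted p = 3.8e-14). LIF, of the same family, was at 1368, 1799, 1297 and 1502 under vehicle and 257, 282, 316 and 273 under vemurafenib (-2.39 ± 0.10). CCL2, the chemokine that draws monocytes, was at 176, 265, 212 and 166 under vehicle and 30.3, 35.5, 29.8 and 29.6 under vemurafenib (-2.65 ± 0.16). IL8 (CXCL8), which draws neutrophils, was at 106, 144, 94.2 and 78.6 under vehicle and 13.1, 12.2, 19.6 and 15.4 under vemurafenib (-2.72 ± 0.22). The groups did not overlap in any of these 4 genes, and each kept reads in every vemurafenib library. IL6 itself was at background, with 1 read in the vehicle libraries together and 4 in the vemurafenib libraries.

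Growth factors and their binding proteins changed in both directions, with 12 of 33 tested higher, 18 lower and a median of -0.68. STC1, the secreted glycoprotein stanniocalcin, was at 1733, 2799.8, 2601 and 3109 under vehicle and 47.4, 51.8, 78.5 and 72.05 under vemurafenib (log2 change -5.33 ± 0.17 SE, adjusted p = 1.5e-13). The activin subunits changed in opposite directions. INHBA was at 457, 562, 766 and 469 under vehicle and 39.4, 40.6, 48.7 and 70.8 under vemurafenib (-3.48 ± 0.18). INHBB was at 0, 1.57, 1.02 and 1.46 under vehicle and 90.8, 50.8, 62.8 and 34.7 under vemurafenib (4.93 ± 0.39). INHBB was thus all but absent under vehicle, with 4 reads in all. TGFB2, a transforming growth factor, was at 27.3, 29.8, 38.2 and 27.7 under vehicle and 517, 410.2, 319 and 448 under vemurafenib (3.73 ± 0.16). FSTL3, which binds and blocks activins, was at 162, 150.3, 162 and 173 under vehicle and 1299, 1179.7, 1189 and 1146 under vemurafenib (2.89 ± 0.08). BMP4 fell (-2.21 ± 0.12). IGFBP3, a binding protein of insulin-like growth factors, was at 858, 875, 574 and 1059.6 under vehicle and 484, 534, 494 and 200.1 under vemurafenib (log2 change -1.04 ± 0.24 SE, adjusted p = 0.0011). The vemurafenib libraries of IGFBP3 were all below those of vehicle, and replicate 4 was the lowest by a wide margin.

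Matrix genes and proteases split evenly: of 38 tested 14 were higher and 13 lower, with a median of 0.00085, although 9 of the rises and 10 of the falls were at least 2-fold. The counts in each direction are near the shares of all genes tested (34.2% higher and 34% lower), of which 21.1% changed at least 2-fold. With equal totals 13 were higher and 17 lower (median -0.26). FN1, the matrix glycoprotein fibronectin, was at 8665, 16599.7, 14794 and 15600.1 under vehicle and 879, 1470.1, 1366 and 983 under vemurafenib (log2 change -3.55 ± 0.18 SE, adjusted p = 3.8e-11). The urokinase receptor PLAUR fell too (-3.20 ± 0.10). COL6A3, a chain of collagen VI, fell (-3.63 ± 0.12). Higher genes stood beside these. COL12A1, a fibril-associated collagen, was at 32.1, 12.5, 8.14 and 16.01 under vehicle and 288, 278, 243 and 233 under vemurafenib (4.002 ± 0.28). THBS1, the matricellular protein thrombospondin, was at 139.5, 93.95, 77.4 and 75.7 under vehicle and 1653, 1035, 1293 and 1032 under vemurafenib (3.70 ± 0.18). MGP, the matrix Gla protein, was at 27.3, 36.01, 31.04 and 27.7 under vehicle and 683, 420.3, 429 and 471 under vemurafenib (3.97 ± 0.16). The metalloproteinase inhibitor TIMP2 rose from 2248 ± 152 to 5391 ± 321 (mean ± SD, n = 4). None of these overlapped between groups. Of the 12 fibroblast and pericyte markers tested, 4 were higher and 5 lower. The collagen genes COL1A2 (-3.73 ± 0.39) and COL3A1 (2.66 ± 0.25) were the ends of their range. Several of these markers are also expressed by cultured melanoma cells, and the part of fibroblasts in the matrix changes was not tested.

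**Figure D4:**
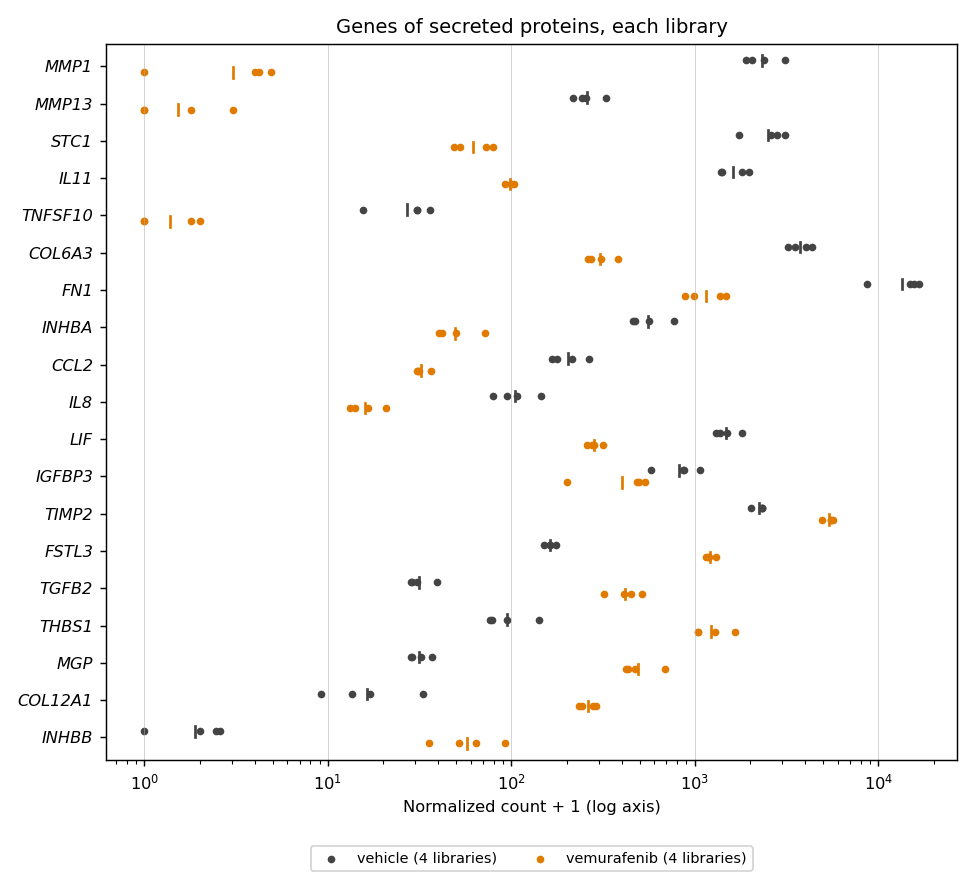
Normalized counts (plus 1, log axis) of genes of secreted proteins and of TNFSF10, a ligand that is also shed, with a point for each library, vehicle in grey and vemurafenib in orange, and a bar at the geometric mean of each group. From MMP1 to IGFBP3 the vemurafenib libraries lie to the left of the vehicle libraries, and from TIMP2 to INHBB to the right.

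The genes that mark the pigment cell lineage rose in part. Of 24 listed 14 could be tested, and 11 were higher, 2 lower and 1 did not pass, with a median of 1.33. SOX10 was at 908, 916, 574 and 741 under vehicle and 7647, 6398, 6369 and 6686 under vemurafenib (log2 change 3.13 ± 0.12 SE, adjusted p = 1.1e-12). MITF was at 191, 216, 152 and 182 under vehicle and 563, 573, 584 and 555 under vemurafenib (log2 change 1.62 ± 0.10 SE, adjusted p = 6.1e-10). Both were above vehicle in all 4 vemurafenib libraries. EDNRB, the endothelin receptor of melanoblasts (2.29 ± 0.12), and S100B (1.99 ± 0.11) rose, while RAB27A (-0.84 ± 0.08) and MLPH (-0.62 ± 0.11), which carry melanosomes to the cell edge, fell. DCT, a melanin enzyme, had no read under vehicle and 42 reads in the vemurafenib libraries together, too few to be tested. Of 21 neural and Schwann-like genes tested 12 were higher and 2 lower (median 0.53), but with equal totals 8 were higher and 6 lower (median 0.24). SEMA3C, a secreted semaphorin, was at 729.6, 634, 639.7 and 556 under vehicle and 3559, 3006, 2833 and 2445 under vemurafenib (2.20 ± 0.10), without overlap between the groups. SOX2, a transcription factor of stem cells, rose too (1.75 ± 0.11).

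Receptor kinases and genes of dedifferentiated melanoma were mixed, with 8 of 22 tested higher and 10 lower (median -0.23). ERBB3, the receptor for neuregulin, was at 572, 448, 332 and 442 under vehicle and 5885, 6308, 5982 and 5208 under vemurafenib (log2 change 3.72 ± 0.12 SE, adjusted p = 1.5e-13), and its partner ERBB2 rose as well (1.70 ± 0.07). NGFR, the nerve growth factor receptor of neural crest cells, was at 41.7, 136, 20.4 and 21.8 under vehicle and 242, 330.0, 279 and 187 under vemurafenib (2.63 ± 0.41). AXL, a receptor kinase associated with dedifferentiated melanoma, was at 429.7, 310.0, 156 and 143 under vehicle and 472, 613, 645 and 566 under vemurafenib (1.29 ± 0.25). In these the groups did not overlap. SOX9, a factor that opposes SOX10 in melanoma, fell and was at 717, 687, 925 and 739 under vehicle and 45.4, 47.7, 62.01 and 62.4 under vemurafenib (log2 change -3.80 ± 0.13 SE, adjusted p = 3.4e-13). EGFR (-2.79 ± 0.19) and PDGFRA (-3.14 ± 0.22), receptor kinases of the same dedifferentiated state, fell, and so did FGFR1 (-1.50 ± 0.10) and the ligand WNT5A (-1.28 ± 0.09).

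Lipid and glucose genes were mostly lower. Of 27 tested genes of cholesterol and fatty acid synthesis 19 were lower and 2 higher (median -0.86). INSIG1, which holds SREBP in the membrane, was at 1148, 1142, 1191 and 1291 under vehicle and 322, 339, 322 and 296 under vemurafenib (log2 change -1.90 ± 0.08 SE, adjusted p = 2.8e-12). SREBF1, which encodes an SREBP, was slightly higher (0.32 ± 0.08) and did not pass with equal totals. Of 29 genes of glycolysis and hypoxia 21 were lower and 3 higher (median -0.92). LDHA, the lactate dehydrogenase of glycolytic cells, was at 6921, 8894, 7382 and 8943 under vehicle and 2455, 2434, 2570.5 and 2378 under vemurafenib (log2 change -1.70 ± 0.09 SE, adjusted p = 3.4e-11). The neuronal glucose transporter SLC2A3 was at 1403, 1219.8, 1452 and 1752 under vehicle and 303, 308, 347 and 288 under vemurafenib (-2.21 ± 0.10). No vemurafenib library of INSIG1, LDHA or SLC2A3 reached the lowest vehicle library. PFKFB3, which makes the activator of phosphofructokinase, fell (-1.71 ± 0.09). GAPDH, of the middle of the pathway, was at 69449.7, 81437, 67875 and 87020.4 under vehicle and 103092, 100916, 100633 and 96931 under vemurafenib (0.40 ± 0.11). GAPDH did not pass with equal totals and turned to a fall, at -0.42, under quantile normalization. Of 26 windows of this list 12 (46.2%) held the core of the hypoxia response element, ACGTG, against 21.6% of all windows. It was about as frequent in mitosis windows (41.7%) and in those of the ATF4 and unfolded protein response list (40.9%). That core is also part of the E-box CACGTG.

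Oxidative phosphorylation was even, with 9 of 27 higher, 9 lower and a median of 0.00287, from NDUFB5 (0.81 ± 0.08) of complex I to CYCS (-1.15 ± 0.08), cytochrome c, at the low end. Both counts are near the shares of all genes tested (34.2% higher and 34% lower), so this list moved about as all genes did. With equal totals 5 were higher and 18 lower (median -0.26). Lysosome and autophagy genes were higher in 21 of 29 and lower in 4 (median 0.46), and with equal totals in 15 and 6. CTSD, the lysosomal protease cathepsin D, was at 978, 949, 802 and 1090.2 under vehicle and 2492, 2502, 2527 and 2084 under vemurafenib (log2 change 1.33 ± 0.09 SE, adjusted p = 2e-09). GABARAP, a protein of autophagosome membranes, rose too (1.33 ± 0.09). PSAP, the precursor of saposins, rose (1.04 ± 0.09). Other cathepsins fell, namely CTSZ (-1.68 ± 0.11), CTSB (-1.15 ± 0.11) and CTSL1 (-0.75 ± 0.12).

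Genes that FOXO factors and low PI3K activity are known to switch on were higher in 19 of 29 and lower in 5 (median 0.70), and with equal totals in 16 and 8. TXNIP, which restrains glucose uptake, was at 2226, 1721, 1687 and 1979 under vehicle and 12504, 10750.5, 13244 and 10795 under vemurafenib (log2 change 2.64 ± 0.10 SE, adjusted p = 6.5e-13). KLF9 (2.44 ± 0.12) rose. PIK3IP1, an inhibitor of PI3K, was at 4.81, 7.83, 6.62 and 8.73 under vehicle and 62.6, 63.96, 62.01 and 63.04 under vemurafenib (3.02 ± 0.23). PDK4 (-1.11 ± 0.12), a kinase of pyruvate dehydrogenase, fell, as did SESN3 (-1.18 ± 0.17). In the BCL2 family 5 of 16 tested were higher and 6 lower, near the 34.2% and 34% of all genes tested (4 and 9 with equal totals). The pro-death member BMF, which ERK is known to hold down, was at 65.7, 57.9, 58.5 and 80.1 under vehicle and 2146, 1491, 1879 and 2197 under vemurafenib (log2 change 4.85 ± 0.13 SE, adjusted p = 2.2e-14). PMAIP1 (NOXA), another pro-death member, went the other way, at 3316, 3068, 2974 and 2736 under vehicle and 343, 465, 588 and 444 under vemurafenib (-2.74 ± 0.12). BBC3 (PUMA) rose (1.14 ± 0.09) and the pro-survival MCL1 fell (-0.80 ± 0.09). Of 19 p53 targets and CDK inhibitors 9 were higher and 7 lower (6 and 8 with equal totals). CDKN1C, the CDK inhibitor p57, was at 12.8, 12.5, 10.7 and 13.1 under vehicle and 117, 85.3, 139.7 and 124 under vemurafenib (3.13 ± 0.19). The antiproliferative BTG1 rose (1.59 ± 0.08). The death receptor FAS (-1.76 ± 0.10) fell, with PHLDA3 (-1.27 ± 0.08), both p53 targets.

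Stress genes changed in both directions. ATF4 and unfolded protein response genes were higher in 7 of 26 and lower in 10 (median 0.06), beside 34.2% and 34% of all genes tested. With equal totals 4 were higher and 13 lower, and the median turned to -0.21. NUPR1, a stress protein of the nucleus, was at 11.2, 7.83, 4.07 and 2.91 under vehicle and 70.6, 60.9, 64.4 and 67.5 under vemurafenib (log2 change 3.30 ± 0.31 SE, adjusted p = 9e-08). ATF4 itself rose (0.75 ± 0.08). MTHFD2, a mitochondrial folate enzyme that ATF4 induces, fell (-1.31 ± 0.07), with TRIB3 (-0.81 ± 0.08). The amino acid response element TGATGNAA was in 4 of 22 windows of this list (18.2%) and 3.67% of all windows. Heat shock genes were lower in 11 of 20 and higher in 6 (median -0.36), and with equal totals lower in 13 and higher in 3 (median -0.62). CRYAB, the small heat shock protein alpha-B-crystallin, stood out, at 3.21, 3.13, 4.07 and 5.82 under vehicle and 137, 94.4, 91.8 and 86.2 under vemurafenib (log2 change 4.36 ± 0.25 SE, adjusted p = 1.9e-10). Most falls were small, as for the cochaperone BAG3 (-0.995 ± 0.09).

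Of 29 interferon-response genes 8 were higher, 6 lower and 15 did not pass (median 0.14), beside 34.2% of all genes higher and 34% lower. IFIT2 (1.01 ± 0.16), which binds foreign RNA, and the regulator IRF7 (0.89 ± 0.13) rose, and ISG20 (-1.62 ± 0.08) and IFITM1 (-1.41 ± 0.19) fell. With equal totals 4 members were higher and 9 lower, with a median of -0.13. With the deposited size factors but without vehicle replicate 1, 13 were higher and 4 lower. Of antigen presentation genes 16 of 22 were higher and 3 lower (median 0.66), and with equal totals 12 and 4 (median 0.39). HLA-B, a heavy chain of MHC class I, was at 1947, 1871, 1348 and 2029 under vehicle and 3812, 3912, 4121 and 3344 under vemurafenib (1.09 ± 0.11). HLA-C (0.95 ± 0.09) and HLA-E (0.90 ± 0.08) rose. Reads of these near-identical genes can be shared among them, so each is uncertain on its own. CIITA, the master factor of MHC class II, fell (-1.15 ± 0.33) on few reads, 85 under vehicle and 39 under vemurafenib. Its groups all but met, at 10.2 in the lowest vehicle library and 10.1 in the highest vemurafenib library. Cell adhesion and cytoskeleton genes were higher in 15 of 26 tested and lower in 8 (median 0.46), and with equal totals in 12 and 10. CD44, the hyaluronan receptor, was at 4766, 5939, 4852 and 5345 under vehicle and 16898, 16327, 15172 and 13994 under vemurafenib (1.58 ± 0.09). The integrin ITGA2 rose (2.18 ± 0.09), while ITGA3 (-1.42 ± 0.09), ITGA4 (-1.32 ± 0.11) and N-cadherin CDH2 (-1.38 ± 0.11) fell.

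**Figure D5:**
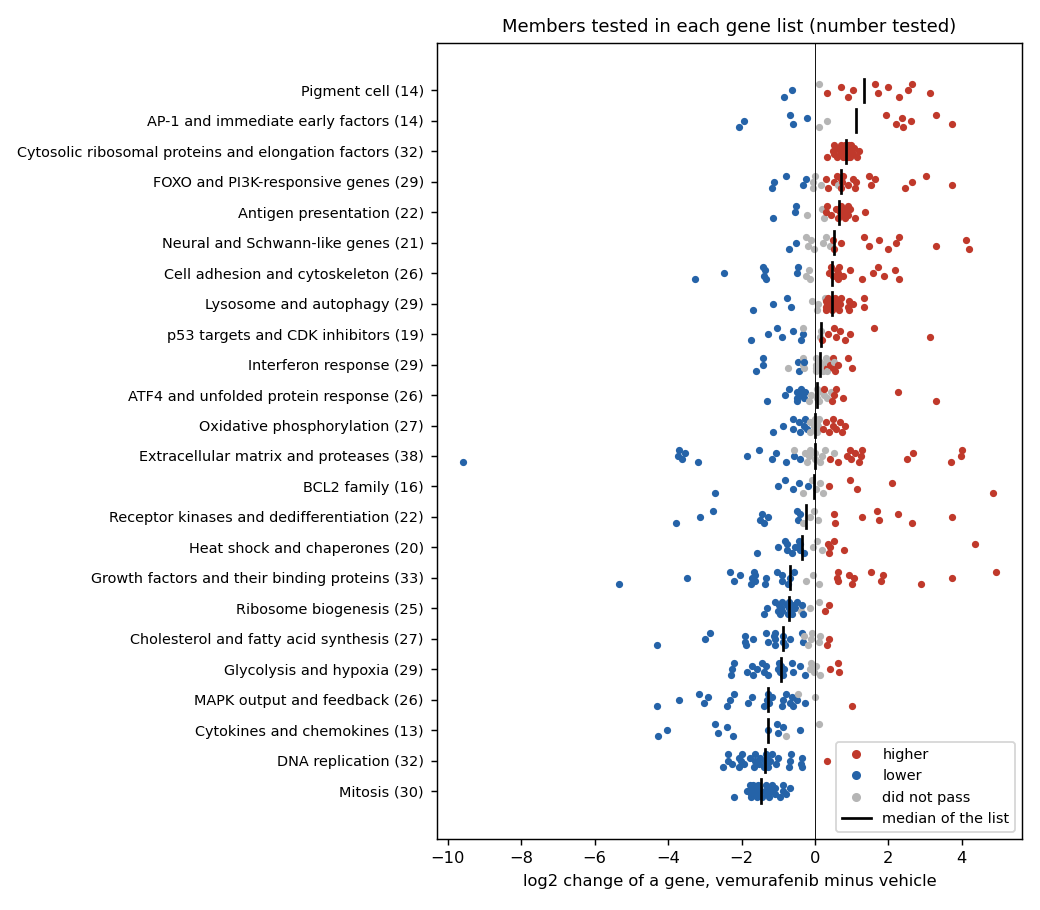
The log2 change, vemurafenib minus vehicle, of each member tested in 24 gene lists, ordered by median, with the number tested in brackets. Red points were higher, blue lower, grey did not pass, and the bar is the median, which runs from -1.48 for mitosis to 1.33 for pigment cell genes.

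A375 cells had also been treated in culture, with vemurafenib at 0.1 µM for 48 h or with vehicle (n = 3 each). They were read as whole-cell RNA. Tumours of A375R, a vemurafenib-resistant derivative, had been given the same doses as the A375 tumours, or vehicle, and read on ribosomes. Of these the tumours labelled Ronly were compared (n = 3 each). Each fit used every library of its own table. The filter and the variance therefore also drew on culture at an earlier time and on A375R tumours labelled SR. The tables were normalized separately, and doses, times and RNA differ, so values are set side by side and their difference was not tested. In culture 6903 of 13816 genes passed (50%), and in A375R tumours 109 of 13755 (0.792%), a count that ran from 1 to 326 as each library was left out in turn. Among 13350 genes tested in A375 in both settings, 4567 were higher in the tumour and 3231 in culture, and 4525 and 3453 were lower. Higher in both were 2180, which is 47.7% of those higher in the tumour and 67.5% of those higher in culture. Lower in both were 2381 (52.6% and 69%). With so many genes called in each setting, part of these overlaps would be there without any relation between the settings. There were 298 genes higher in the tumour and lower in culture, and 306 the other way round. Cell cycle lists fell in both: in culture 32 of 32 replication and 30 of 30 mitosis genes were lower, with medians of -2.27 and -2.74. MAPK output was lower in 24 of 25 (median -2.09), and in A375R tumours 3 of 26 were lower.

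Of the 32 ribosomal protein and elongation factor genes none was higher in culture and 4 were lower (median -0.16), against 32 higher in the tumour. The tumour count depends on the scaling: quantile normalization left 7 higher and 4 lower there, with a median of 0.0413. No other scaling is given for this list in culture. RPL28 was at 1.19 ± 0.09 in the tumour and 0.12 ± 0.19 in culture. Biogenesis genes were lower in 25 of 25 in culture. Interferon-response genes were higher in 20 of 26 in culture (median 1.14), against 8 of 29 in the tumour, and antigen presentation in 21 of 22 against 16 of 22. EGR1, which did not pass in the tumour, was at -3.97 ± 0.51 in culture. JUN was at 2.36 ± 0.13 in the tumour and 3.01 ± 0.30 in culture. CCL2 was at -2.65 ± 0.16 in the tumour and 4.98 ± 0.42 in culture, and AXL at 1.29 ± 0.25 and -0.91 ± 0.20. For CCL2 and AXL these opposite signs held in every library of each setting against its own vehicle. SOX10 was at 3.13 ± 0.12 in the tumour and 0.06 ± 0.14 in culture, where it did not pass. SPRY4 fell in both, at -4.31 ± 0.17 and -4.95 ± 0.24. In A375R tumours SPRY4 was at -0.39 ± 0.13, SOX10 at 0.60 ± 0.52 and MKI67 at 0.54 ± 0.17.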

How the data were processed

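Libraries of 8 tumours were made, per the labels' protocols, with version 2 of the TruSeq RNA kit, so strand was not kept, and groups were taken from the sample titles. The deposited table holds one signal per gene, a count of reads that the authors had scaled by one size factor for each library. DESeq 1.18.0, HTSeq 0.5.4, STAR 2.3.0e and the builds hg19 and mm9 are listed in the submitters' processing notes, without their roles. All values were whole multiples of one step per library (100% within a tolerance of 0.1), which gave back the reads and the depth of 8063754 to 25467614 per library. Deeper libraries have smaller counting error, and intervals cover counting error only.

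The main test was limma 3.58.1 (R 4.3.3) with its variance trend, run on log2(value + 1), for genes with a mean of at least 10, two-sided, with Benjamini-Hochberg adjustment over all genes tested and a threshold of 0.05. On this scale the change of a gene with few reads is understated. The method was also run on simulated data, in which few genes were changed, evenly up and down. That run does not bear on the scaling of the libraries. Alternatives were a pseudocount of 0.5 or 5, a filter at 50 or none, quantile normalization, the replicate number as a block, leaving out each library, edgeR 4.0.16 and DESeq2 1.42.0 on the recovered reads (9797 and 9919 genes changed, against 9603), and, chosen after seeing the data, scaling to equal totals and leaving out the library of each group with most precursor rRNA.

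The members, the 31 gene lists and the tests were chosen with earlier results of these data known, so a list's direction is not independent evidence. Named genes are the 15 largest changes in each direction among called genes with a mean of at least 50, without overlap and without a noncoding name, up to 3 members of each list and direction with the smallest adjusted p, and AXL, CCND1, DUSP6, FOSL1, IGFBP3, IL6, MITF, MKI67, MLANA and SPRY4. Not all are given, and some genes are not reported here. CCNB2, CDC20, CDH5, COL12A1, COL1A2, COL3A1, CSF1R, DCT, DDX21, E2F1, EEF1A1, EEF1B2, EEF1G, EEF2, EGFR, EGR1, ETV4, FCER1G, FN1, FOS, HBB, IL8, KRT14, NGFR, NR4A1, PCNA, PDGFRA, PIK3IP1, PLK1, PMEL, PTPRC, RFC3, RPL6, RPL10, RPL13, RPS6, TNFSF10, TYR and the genes of the closing section were named after their values were seen, as were the sequences shown. IL8, CTSL1 and C13orf15 are the file's symbols. Without strand, a gene and an overlapping antisense gene cannot be told apart. Promoter windows were matched by symbol, taking the first listed for a gene.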

Additional observations from a re-analysis of the deposited data

Results flagged for a closer look

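In 12 of 136 groups of 4 libraries whose values are given, 1 library stood apart from the other 3 by a gap to the nearest that took up most of the group's range (Dixon's test). Chance flags about 1 in 20 groups. Under vehicle, replicate 1 was high in JUN (893, others 556 to 593) and SLC35F1 (33.7, others 11.6 to 14.1), and replicate 4 in RPL28 (32938, others 27400 to 28049). Under vemurafenib, replicate 2 was low in JUN (2668, others 3436 to 3568), FOS (865, others 1755 to 1932) and RPL10A (30312, others 31545 to 31682). It was high in CCL2 (35.5, others 29.6 to 30.3) and LCN1 (33.5, others 13.3 to 16.7). Replicate 4 was low in CTSD (2084, others 2492 to 2526) and IGFBP3 (200.1, others 484 to 534), and replicate 1 was high in CRYAB (137, others 86.2 to 94.4). For MMP10 the library that stood apart held its only read (0.785, the others at 0). In JUN, FOS, CCL2, IGFBP3 and the other genes here the groups stayed without overlap.

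In 4 gene comparisons every tumour library moved one way and every library of another setting the opposite way. The differences were not tested. AXL was at 1.29 in the tumour and -0.91 in culture, and CCL2 at -2.65 and 4.98. Against A375R tumours, MKI67 was at -1.33 in A375 and 0.54 in A375R, and RPL28 at 1.19 and -0.45, and neither A375R value passed the threshold.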

How the results depend on the processing

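The counts of changed genes in the A375 tumours and 27 counts of list members (those of 8 or more in one direction) were recomputed under each alternative, and 551 of 558 such counts stayed within 1.5 times the main one. The exceptions among them follow. With equal totals, 3012 genes were higher (4815 with the deposited size factors), 4 interferon-response members were higher, and oxidative phosphorylation had 5 higher and 18 lower. With quantile normalization 7 members of the list of ribosomal proteins and elongation factors were higher. With a filter at 50, 7 cytokine members were lower, since fewer could be tested. Leaving out 1 library at a time gave 7 to 13 interferon-response members higher, with 13 without vehicle replicate 1. In A375R tumours the count of 109 became 14 without a filter, 298 with the replicate block and 739 with DESeq2, and ran from 1 (without vehicle replicate 3) to 326 (without vemurafenib replicate 3), with 3, 33, 4 and 2 without the others, so it rests on single libraries. Apart from equal totals and quantile normalization, whose construction sets the levels, the cause was not tested.

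The other 33 list counts, under 8 or of markers and references, gave 553 of 594 values within 1.5 times. Of the 41 outside, 12 came with equal totals, among them ATF4 response (7 to 4 higher), heat shock (6 to 3 higher), neural genes (2 to 6 lower), FOXO-responsive genes (5 to 8 lower) and references (4 to 1 higher, 2 to 8 lower). Equal totals also turned the list medians of matrix, interferon-response, p53, oxidative phosphorylation, ATF4 response and endothelial genes below 0.

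Of 167 genes taken by the naming rule and tested, 158 kept direction and side of the threshold in every alternative run. NPM1 (-0.20), GAPDH (-0.42) and RPLP0 (-0.0886) reversed under quantile normalization. CDT1, NPM1, FBL, PMVK, SREBF1, GAPDH and GUSB were among those that did not pass with equal totals.

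Same-numbered libraries of the tumour groups had correlations of deviations of -0.0808, 0.0419, 0.0411 and -0.125. Whether they share a mouse, litter or day is not stated, and these correlations cannot decide it. The replicate block gave 9253 changed genes (4644 higher, 4609 lower) against 9603. Same-numbered libraries of the culture comparison gave 0.402, 0.028 and 0.32, and the block 8307 against 6903, and of A375R 0.0827, 6.74e-05 and 0.0705.

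Low reads limit the folds of genes near 0 in one group, as their intervals show.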

Other observations

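Neighbours on a chromosome fell together in one case and parted in another, by the order of protein-coding genes in RefSeq on GRCh38.p14. LCN1, OBP2A and PAEP, 3 secreted lipocalins among the deepest falls, follow each other on chromosome 9. On one side of them lies MRPS2, a gene of the mitochondrial ribosome, which fell far less (-0.88 ± 0.07), and further along the other way GLT6D1 and LCN9 were at 0 in all 8 libraries. On chromosome 11 the metalloproteinase genes MMP7, MMP20, MMP27, MMP8, MMP10, MMP1, MMP3, MMP12 and MMP13 stand in a row. Of these MMP1 and MMP13 fell as given above. MMP10, a stromelysin, was at 20.8, 28.2, 34.1 and 32.02 under vehicle and 0, 0, 0.785 and 0 under vemurafenib, which is 120 reads against 1, a ratio of 147 (95% interval 25.9 to 5866, counting error only). MMP8, a collagenase known from neutrophils, went the other way, at 0, 0, 0.509 and 1.46 under vehicle and 23.2, 25.4, 21.98 and 12.2 under vemurafenib, which is 2 reads against 95, a ratio of 38.7 (95% interval 10.4 to 324). The flanking genes TMEM123 (0.45 ± 0.08) and DCUN1D5 (-0.79 ± 0.07) changed by less than 1 log2 unit, in opposite directions.

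Genes often used as references did not all hold still. Of 12 such genes 4 were higher and 2 lower (median -0.07), but with equal totals 1 was higher and 8 lower (median -0.34), and under quantile normalization 2 and 5. Without vemurafenib replicate 1, 4 were lower. RPLP0 was higher (0.76 ± 0.09), with GUSB (0.31 ± 0.10), and HPRT1 was lower (-0.53 ± 0.11). GUSB did not pass with equal totals, and RPLP0 turned to -0.0886 under quantile normalization, so these genes move with the scaling.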
